A study of Mus musculus with 21 samples.

Results

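The nuclear genes for respiratory complexes III, IV and V were followed in whole-brain RNA of 21 mice. Genes were taken by name from the 16318 genes of the deposited table: symbols starting with Uqcr, with Cox4 to Cox8 or with Atp5, together with Cyc1, the assembly factors Uqcc1 to Uqcc3 and Cycs, the cytochrome c gene. This rule used no measured value and gave 47 genes, 12 of complex III, 17 of complex IV, 17 of complex V and Cycs. All mice carried the label SAMP8, a naturally occurring senescence-accelerated line, and no SAMR1 control mice were among these libraries. HsTX1[R14A] is a peptide that blocks Kv1.3, a potassium channel of activated microglia. From 4 to 6 months of age, over 8 weeks, 9 mice (3 female and 6 male) received it under the skin on alternate days, each time at 1 mg/kg. Phosphate-buffered saline (PBS) had been given on the same schedule to 12 mice (6 female and 6 male). Each mouse gave 1 library, and library totals ran from 14917174 to 47613792 estimated counts.

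Complex III passes electrons from ubiquinol to cytochrome c, complex IV passes them from cytochrome c to oxygen, and complex V uses the resulting proton gradient to make ATP. The catalytic core of complex IV, cytochrome b of complex III and part of the proton channel of complex V are encoded by mitochondrial DNA, while the nuclear genes described here supply the remaining subunits. In the brain, this chain supplies most of the ATP that neurons spend on ion pumping and synaptic transmission. Many nuclear respiratory genes are known to carry sites for NRF1 (nuclear respiratory factor 1), for the ETS-family factor GABPA and for YY1 near their start.

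Promoter sequences are shown for a subunit of each complex that was lower in HsTX1[R14A] mice (Uqcr11, Cox6a1 and Atp5l) and for Atp5b, the catalytic beta subunit of ATP synthase, whose levels overlapped nearly fully. They were chosen after the values had been seen. RefSeq start sites (GRCm38.p6) were matched for 38 of the 47 genes, and the 250 bases upstream of each start were searched on both strands for GCGCA, any base and GCGC in a row (NRF1), CCGGAAG (ETS, GABPA) and AANATGGCG (YY1, whose last 3 bases can be shared with the NRF1 motif). The lines run 5′ to 3′ on the coding strand, end before the first annotated base of the gene, and carry motif matches in capitals. Uqcr11 lies at chr10:80406831-80407071 (minus strand), Cox6a1 at chr5:115348982-115349208 (minus strand), Atp5l at chr9:44920743-44920992 (minus strand) and Atp5b at chr10:128083057-128083272 (plus strand).
Uqcr11: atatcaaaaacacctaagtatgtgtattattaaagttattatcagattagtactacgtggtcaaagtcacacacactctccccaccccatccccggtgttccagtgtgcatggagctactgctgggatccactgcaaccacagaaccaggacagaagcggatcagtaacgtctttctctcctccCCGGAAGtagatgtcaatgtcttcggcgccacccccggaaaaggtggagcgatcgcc
Cox6a1: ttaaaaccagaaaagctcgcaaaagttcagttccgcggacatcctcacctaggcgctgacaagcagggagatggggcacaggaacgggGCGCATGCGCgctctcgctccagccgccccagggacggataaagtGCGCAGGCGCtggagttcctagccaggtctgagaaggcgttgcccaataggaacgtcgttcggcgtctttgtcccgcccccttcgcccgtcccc
Atp5l: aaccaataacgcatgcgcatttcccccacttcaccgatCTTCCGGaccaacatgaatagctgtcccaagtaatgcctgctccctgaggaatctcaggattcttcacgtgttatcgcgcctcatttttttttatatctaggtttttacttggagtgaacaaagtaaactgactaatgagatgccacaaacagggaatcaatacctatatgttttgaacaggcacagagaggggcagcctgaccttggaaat
Atp5b: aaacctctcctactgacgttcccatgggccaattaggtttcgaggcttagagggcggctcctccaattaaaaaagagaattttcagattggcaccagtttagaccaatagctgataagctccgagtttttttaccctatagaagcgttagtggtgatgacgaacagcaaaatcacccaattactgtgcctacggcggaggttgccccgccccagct
The Uqcr11 window held a forward ETS match, the Atp5l window a reverse ETS match and the Cox6a1 window a pair of NRF1 matches, while the Atp5b window held none of these letters. Cox6a1 also has an ETS match, in the part of its 250 bases that overlaps the annotated gene and is not printed. The NRF1 letters were found in 6 of the 38 genes (15.8%) against 8.43% of 11511 tested genes with a window. For the ETS letters the shares were 8 of 38 (21.1%) against 13.8%, and for the YY1 letters 2 of 38 (5.26%), namely Atp5j and Atp5sl, against 2.21%. Of the 6 genes with NRF1 letters, 4 belonged to complex V (Atp5c1, Atp5g2, Atp5h and Atp5k), 1 to complex III (Uqcc2) and 1 to complex IV (Cox6a1). Cox6a1 and Atp5k of these were called lower in the test given next, and the others were not. With ETS letters, Uqcr11, Uqcrh, Cox6a1, Cox6b1, Atp5j and Atp5l were called lower, and Atp5e and Atp5h were not. Cox7c, Cox7b, Cox8a, Atp5j2, Atp5f1 and Cycs held none of these letters and were called lower too. The printed windows do not stand for all 47 genes, and a link of letters to differences was not tested.

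Levels of complex III, IV and V genes were lower in HsTX1[R14A] mice for part of each complex, most often for the small accessory subunits, and the large catalytic subunits did not pass the test. Of the 47 genes, 25 had an adjusted p of at most 0.05 (quasi-likelihood test of edgeR with sex as covariate, Benjamini-Hochberg over all 16285 tested genes), and all 25 were lower. Among all tested genes, 16.1% were called lower and 15.5% higher, 31.6% in all. The fitted log2 fold change (HsTX1[R14A] against PBS) was below 0 for 46 of the 47 genes and had a median of -0.464, against 51.4% of all tested genes below 0 and a median of -0.013. The count depended on the fit. With each library's transcript-length slope as a covariate, 0 of the 47 genes and 0 of all tested genes were called. Once a trend on GC content and longest transcript was taken out of each library, 3 of the 47 were called, against 6.45% of all tested genes called lower. With the trend on GC content and coding length taken out instead, 6 were called, against 8.41%. The 1 complex III gene among these 6 was the core subunit gene Uqcrc1. Levels are given as TMM-scaled CPM, which express each count relative to its library's scaled total. In bulk RNA, fewer cells of a type and less RNA per cell cannot be told apart. The ranges of the 2 groups overlapped for all 47 genes, as they did for nearly all tested genes (0.0184% did not overlap).

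**Figure D1:**
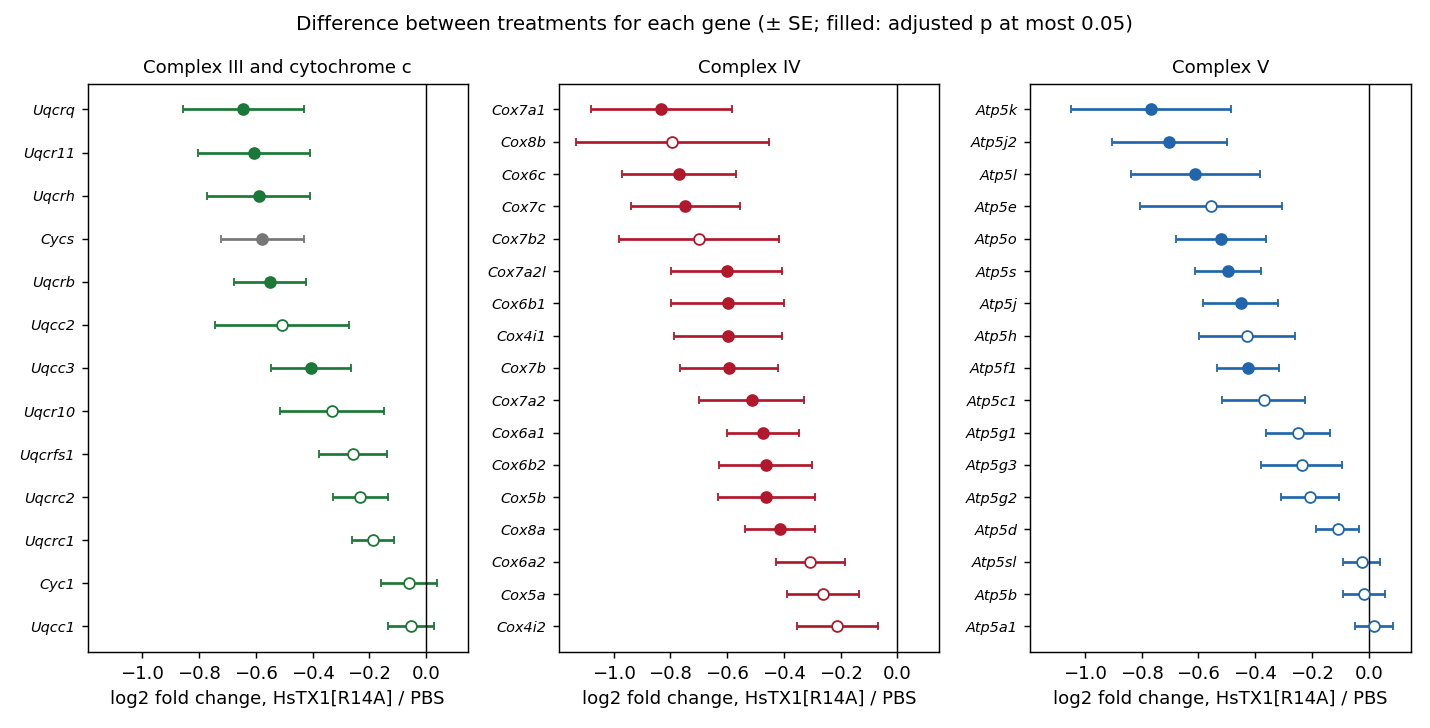
Log2 fold change between HsTX1[R14A] and PBS mice (x axis, ± SE from edgeR) for each of the 47 genes (y axis), with filled points for an adjusted p of at most 0.05. Filled points number 5 of 12 in complex III, 12 of 17 in complex IV and 7 of 17 in complex V, and Atp5a1 alone lies above 0.

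By complex, 12 of 17 complex IV genes were called lower, compared with 5 of 12 in complex III and 7 of 17 in complex V. The median log2 fold change was -0.595 in complex IV (range -0.831 to -0.212), -0.369 in complex III (-0.644 to -0.054) and -0.426 in complex V (-0.767 to 0.019). The make-up of the complexes differs in the size of the encoded proteins, since coding lengths had a median of 267 bases in complex IV, 370.5 in complex III and 483 in complex V, and the longest complex IV coding sequence measured 516 bases. Without the 3 assembly factors of complex III, the 6 tissue isoforms of complex IV and Atp5s and Atp5sl of complex V, the counts were 4 of 9 in complex III, 10 of 11 in complex IV and 6 of 15 in complex V. The difference between complexes was not tested, because genes of a complex are not replicates of each other.

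These counts moved when single mice were left out, and the counts over all tested genes in those fits are not given here. Over the 47 genes they ran from 7 called without PBS mouse 90 to 34 without HsTX1[R14A] mouse 93, with 12 without HsTX1[R14A] mouse 98, 14 without mouse 71, 14 without mouse 88 and 16 without mouse 81. Without PBS mouse 90, 1 complex III, 3 complex IV and 2 complex V genes were called, and without HsTX1[R14A] mouse 98 these counts were 1, 6 and 4. Complex IV also stood at 6 without mouse 71 or mouse 88. Complex III stood at 2 without mouse 71, 88 or 81, at 3 without mouse 72 and at 8 without mouse 93, and complex V at 12 without mouse 93. The medians stayed below 0 with each mouse left out, from -0.659 to -0.491 in complex IV, -0.426 to -0.283 in complex III and -0.471 to -0.321 in complex V.

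In complex III, the accessory subunits were lower and the core and catalytic subunits did not pass the test in the fit without a length term. This contrast was not seen once the trend on coding length and GC content was removed, as given at the end of the next paragraph. Uqcrb, Uqcrh, Uqcr11 and Uqcrq, 4 of the 5 accessory genes, were called, with a median of -0.59 over the 5, and Uqcr10 had a log2 fold change of -0.33 (adjusted p = 0.157, edgeR). Uqcrb encodes a small matrix-side subunit near the ubiquinone site. Its level ran from 93.9 to 207 CPM in PBS mice (median 138) and from 69.2 to 142 CPM in HsTX1[R14A] mice (median 98.2). That was a log2 fold change of -0.55 (SE 0.13, adjusted p = 0.0152, edgeR), with 8 of the 9 treated mice below the PBS median. Uqcrh, the hinge protein next to cytochrome c1, ran from 108 to 312 CPM (median 158) and from 88.9 to 182 CPM (median 118), a log2 fold change of -0.59 (SE 0.18, adjusted p = 0.0245, edgeR). Uqcr11, the smallest complex III subunit gene here with 168 coding bases, ran from 104 to 301 CPM (median 159) and from 72.2 to 196 CPM (median 109). Its log2 fold change was -0.61 (SE 0.20, adjusted p = 0.0289, edgeR), and in each of these 3 genes the upper PBS mice stood above every treated mouse, 5 mice for Uqcrb and Uqcrh and 3 for Uqcr11. Uqcrb lies on chromosome 13 from 66900617 to 66905378 (GRCm38), has 3 close annotated pseudogenes and overlaps Gm10767 on the other strand, and Uqcrh overlaps Gm12854, so part of their counts may belong elsewhere.

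The larger complex III proteins showed smaller differences. Uqcrc1 and Uqcrc2 encode the core proteins on the matrix side. Uqcrc1 measured 186 to 264 CPM in PBS mice (median 205) and 172 to 226 CPM in HsTX1[R14A] mice (median 175), with 5 treated mice below every PBS mouse and a log2 fold change of -0.19 (SE 0.07, adjusted p = 0.0548, edgeR). Uqcrc2 measured 156 to 260.0 CPM (median 193) and 145 to 223 CPM (median 162), a log2 fold change of -0.23 (SE 0.10, adjusted p = 0.0692, edgeR). Uqcrfs1, the Rieske iron-sulfur protein that takes electrons from ubiquinol, measured 66.9 to 119.7 CPM (median 83.1) and 49.4 to 102 CPM (median 68.0), with -0.26 (SE 0.12, adjusted p = 0.0959, edgeR). Cyc1, cytochrome c1, hands electrons to cytochrome c. It measured 78.5 to 138 CPM (median 99.5) and 78.8 to 118 CPM (median 91.1), and its log2 fold change was -0.06 (SE 0.10, adjusted p = 0.645, edgeR). Among the assembly factors, Uqcc3 was lower (-0.41, adjusted p = 0.0347, edgeR), whereas Uqcc1 measured 37.0 to 58.0 CPM (median 41.8) and 34.4 to 47.2 CPM (median 42.7), with -0.05 (SE 0.08, adjusted p = 0.612, edgeR). Uqcc2, the third assembly factor, had -0.51 (adjusted p = 0.0977, edgeR). Uqcrc1 and Uqcrc2 crossed the threshold with certain mice left out, Uqcrc1 at 0.0382 and Uqcrc2 at 0.0374 without HsTX1[R14A] mouse 92. With each library's trend on coding length and GC content removed, Uqcrc1 was the 1 complex III gene called (-0.28, adjusted p = 0.0496, edgeR). Uqcrc2, Uqcrfs1 and Cyc1 then had -0.15, -0.12 and -0.11. The accessory genes Uqcrb, Uqcrh, Uqcr11, Uqcrq and Uqcr10 had -0.069, -0.124, -0.155, -0.186 and 0.134.

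Cycs, the mobile carrier between complexes III and IV, was lower as well. It ran from 169 to 456 CPM in PBS mice (median 265) and from 150.3 to 289 CPM in HsTX1[R14A] mice (median 187). The log2 fold change was -0.58 (SE 0.15, adjusted p = 0.0170, edgeR), 8 of the 9 treated mice lay below the PBS median and 5 of the 12 PBS mice above every treated mouse. Cycs has 3 close annotated pseudogenes, none of them among the 16318 genes.

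In complex IV, 9 of the 10 subunits that are common to all tissues were lower, with a median log2 fold change of -0.554. Cox7c, a small membrane-spanning subunit with 189 coding bases, ran from 151 to 543 CPM in PBS mice (median 249.7) and from 129 to 267 CPM in HsTX1[R14A] mice (median 147). It had a log2 fold change of -0.75 (SE 0.19, adjusted p = 0.0171, edgeR), and 5 treated mice lay below every PBS mouse. Cox6c ran from 159 to 508 CPM (median 257) and from 129 to 299 CPM (median 159.5), a log2 fold change of -0.77 (SE 0.20, adjusted p = 0.0176, edgeR). Cox6a1, a small membrane-spanning subunit, ran from 266 to 613 CPM (median 375) and from 225 to 403 CPM (median 259.6), with -0.47 (SE 0.13, adjusted p = 0.0181, edgeR). For each of these 3 genes, 8 of the 9 treated mice were below the PBS median. Cox7b and Cox5b were also called. Cox5a was the 1 common subunit that did not pass, at 87.6 to 169.5 CPM in PBS mice (median 109) and 71.0 to 141 CPM in HsTX1[R14A] mice (median 93.6), with -0.26 (SE 0.13, adjusted p = 0.112, edgeR). Cox7a2l, which links complexes III and IV into supercomplexes, was called (-0.60, adjusted p = 0.0292, edgeR), but counts of a close pseudogene, Gm6969, came to 28.5% of its own.

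**Figure D2:**
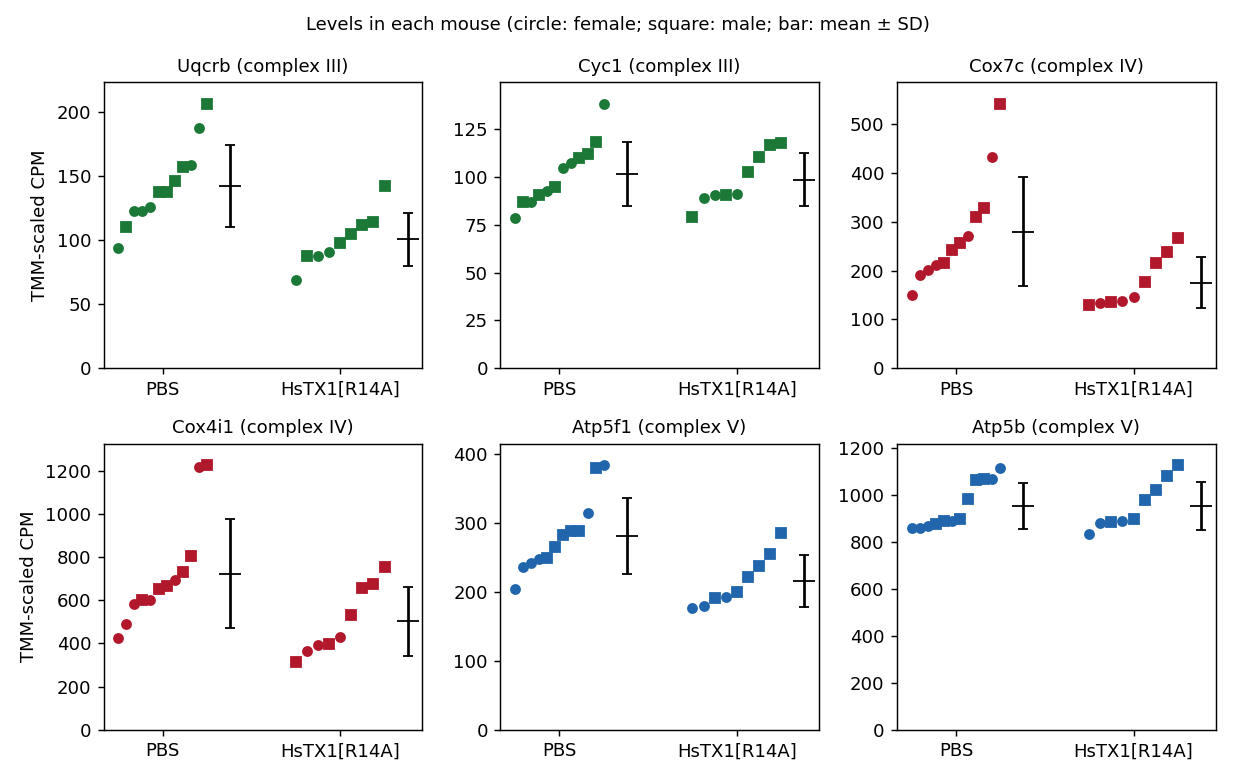
TMM-scaled CPM (y axis) in each of the 12 PBS and 9 HsTX1[R14A] mice for 6 genes, with circles for females, squares for males and bars for the mean ± SD. Uqcrb, Cox7c, Cox4i1 and Atp5f1 sit lower in most treated mice with overlapping ranges, whereas Cyc1 and Atp5b cover nearly the same range in both groups.

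Cox4i1, Cox6a1, Cox6b1, Cox7a2 and Cox8a have partner isoforms that are best known from lung, muscle, heart or testis. Per kilobase of coding sequence, the common form stood far above its partner in every mouse. The ratio of Cox4i1 to Cox4i2 had a median of 449 in PBS mice and 386 in HsTX1[R14A] mice, that of Cox6a1 to Cox6a2 62.3 and 67.1, and that of Cox8a to Cox8b 309.7 and 439.8, with overlapping ranges in each pair. For Cox6b1 to Cox6b2 the medians were 140.4 and 126, and for Cox7a2 to Cox7a1 84.4 and 105.

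Cox4i1, a regulatory subunit that binds ATP, was lower, from 425 to 1227 CPM in PBS mice (median 657) against 314 to 753 CPM in HsTX1[R14A] mice (median 431), a log2 fold change of -0.60 (SE 0.19, adjusted p = 0.0274, edgeR). It overlaps Emc8 on the other strand. Cox4i2, the lung form, measured 0.986 to 1.99 CPM (median 1.57) and 0.956 to 1.96 CPM (median 1.38), with -0.21 (SE 0.14, adjusted p = 0.242, edgeR). Cox6a2, the heart and muscle form, measured 4.09 to 7.17 CPM (median 5.13) and 3.33 to 6.10 CPM (median 3.99), with -0.31 (SE 0.12, adjusted p = 0.0578, edgeR). Its values lay below every PBS mouse in 6 treated mice, and it passed the test without PBS mouse 102, 83, 91 or 84 or HsTX1[R14A] mouse 81 (adjusted p from 0.0368 to 0.0462, edgeR).

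Cox6b1 joins the complex IV dimer on the outer side of the membrane. It was lower, at 229 to 654 CPM in PBS mice (median 335) and 171 to 422 CPM in HsTX1[R14A] mice (median 249), with -0.60 (SE 0.20, adjusted p = 0.0312, edgeR). Cox6b2, the testis form, measured 1.88 to 4.68 CPM (median 3.28) and 1.44 to 2.76 CPM (median 2.38), a log2 fold change of -0.46 (SE 0.16, adjusted p = 0.0377, edgeR), and all 9 treated mice were below the PBS median. Cox7a2 measured 82.9 to 224 CPM (median 126) and 67.4 to 157 CPM (median 88.7), with -0.51 (SE 0.18, adjusted p = 0.0403, edgeR). Cox7a1, the muscle form, had the most negative log2 fold change of the 47 genes, -0.83 (SE 0.25, adjusted p = 0.0225, edgeR), at 0.986 to 3.26 CPM (median 1.40) and 0.533 to 1.47 CPM (median 0.883).

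Cox8a, a short subunit with 207 coding bases, ran from 281 to 596 CPM in PBS mice (median 364) and from 219 to 404 CPM in HsTX1[R14A] mice (median 266), a log2 fold change of -0.41 (SE 0.12, adjusted p = 0.0234, edgeR). Cox8b, its heart and muscle form, ran from 0.275 to 3.55 CPM (median 1.32) and from 0.354 to 1.14 CPM (median 0.766). All 9 treated mice lay below the PBS median of Cox8b, and its log2 fold change of -0.79 had an SE of 0.34 (adjusted p = 0.0746, edgeR). It passed without PBS mouse 104 (0.0334) or 84 (0.0415). Cox7b2 was the lowest of all 47 genes, with PBS values of 0.278 to 1.13 CPM. Of the striated muscle markers Acta1, Myh1, Ckm, Tnnt3 and Mylpf, only Acta1 had enough counts to be tested, at 5.46 to 10.2 CPM in PBS mice and 4.14 to 7.79 CPM in HsTX1[R14A] mice.

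In complex V, genes of the membrane-embedded accessory subunits and of the peripheral stalk were lower, and those of the F1 head and of the c-ring did not pass in the fit of all mice. That fit has no length term, and the contrast of stalk and F1 head was not seen with the trend on coding length and GC content removed. Atp5j2, Atp5k and Atp5l, subunits f, e and g around the proton channel, were all called, with a median of -0.703. Atp5j2 ran from 133 to 430.1 CPM in PBS mice (median 201) and from 89.7 to 243 CPM in HsTX1[R14A] mice (median 134), a log2 fold change of -0.70 (SE 0.20, adjusted p = 0.0208, edgeR). In the peripheral stalk, which holds the head still against the rotor, 3 of 4 genes were called (Atp5f1, Atp5j and Atp5o) and Atp5h had an adjusted p of 0.0557 (edgeR). Atp5f1, subunit b, ran from 204 to 385 CPM (median 274) and from 177 to 286 CPM (median 201), with -0.43 (SE 0.11, adjusted p = 0.0171, edgeR). It overlaps Wdr77 on the other strand, and Atp5j overlaps Gabpa. With each library's trend on coding length and GC content removed, Atp5f1, Atp5j, Atp5h and Atp5o had -0.05, -0.07, -0.10 and -0.28. The F1 genes Atp5a1, Atp5b, Atp5c1, Atp5d and Atp5e then had -0.14, -0.12, -0.27, 0.08 and -0.02. Atp5j2, Atp5k and Atp5l had -0.27, -0.31 and -0.10, and the c-ring genes Atp5g1, Atp5g2 and Atp5g3 had 0.10, -0.03 and 0.08. Of these genes, Atp5j2 and Atp5o were called in that setting.

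The c-ring is the rotor that turns with proton flow, and its subunit c is encoded by 3 genes for the same mature protein. Atp5g1 measured 99.4 to 179.8 CPM in PBS mice (median 131) and 91.8 to 153 CPM in HsTX1[R14A] mice (median 107), with a log2 fold change of -0.25 (SE 0.11, adjusted p = 0.0929, edgeR). Atp5g2 measured 81.2 to 148 CPM (median 103) and 73.0 to 128 CPM (median 89.3), with -0.21 (SE 0.10, adjusted p = 0.119, edgeR). Atp5g3 measured 93.7 to 207 CPM (median 138) and 71.1 to 165 CPM (median 126), with -0.24 (SE 0.14, adjusted p = 0.192, edgeR). The 3 log2 fold changes lay between -0.25 and -0.21, and 0 of the 3 genes passed in the fit of all mice. Without HsTX1[R14A] mouse 93, Atp5g1 (0.0466) and Atp5g2 (0.0485) did.

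Of the 5 F1 genes, 0 were called in the fit of all mice, with a median of -0.109. Calls in complex V moved with the mice used, from 7 of 17 in that fit to 12 without HsTX1[R14A] mouse 93. Atp5a1 and Atp5b encode the alpha and beta subunits of the catalytic hexamer. Atp5a1, on chromosome 18 from 77773729 to 77782869, ran from 557 to 739.8 CPM in PBS mice (median 618) and from 549 to 760.0 CPM in HsTX1[R14A] mice (median 633). Its log2 fold change was 0.02 (SE 0.07, adjusted p = 0.839, edgeR). Atp5b ran from 857 to 1116 CPM (median 893) and from 835 to 1128 CPM (median 896), with -0.02 (SE 0.07, adjusted p = 0.878, edgeR). Among PBS mice these genes had SDs of 0.123 and 0.148 on the log2 scale, against a median of 0.395 over the 47 genes and 0.297 over all tested genes. Atp5c1, the gamma shaft, and Atp5e, the epsilon subunit, had larger differences of -0.37 and -0.56 that did not pass (adjusted p = 0.0576 and 0.0875, edgeR).

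Atp5s and Atp5sl carry ATP synthase names but encode no subunit of the purified enzyme, and RefSeq lists them as Dmac2l and Dmac2. Atp5s had the smallest p of the complex V genes. It ran from 14 to 27.9 CPM in PBS mice (median 18.1) and from 11.5 to 17.2 CPM in HsTX1[R14A] mice (median 13.5), with all 9 treated mice below the PBS median. The log2 fold change was -0.50 (SE 0.12, adjusted p = 0.0153, edgeR). For Atp5sl it was -0.02 (adjusted p = 0.788, edgeR).

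In the called genes given with full values, 7 kept an adjusted p of at most 0.05 with each mouse left out in turn, namely Uqcrb, Cycs, Cox7c, Cox6c, Cox6a1, Atp5s and Atp5f1. Without PBS mouse 90, Uqcr11 (0.0688), Uqcrh (0.0593), Cox4i1 (0.0676), Cox6b1 (0.0753), Cox6b2 (0.0732), Cox7a1 (0.0549), Cox7a2 (0.0969), Cox8a (0.0560) and Atp5j2 (0.05003) lost the threshold (adjusted p, edgeR). Uqcr11, Cox4i1, Cox6b1, Cox6b2 and Cox7a2 also lost it without HsTX1[R14A] mouse 71, 88 or 98, all but Cox4i1 without mouse 81 and Uqcrh without mouse 98, with adjusted p-values from 0.0508 to 0.0833 (edgeR). Without HsTX1[R14A] mouse 72, Cox6b1 (0.0522), Cox6b2 (0.0594) and Cox7a2 (0.0639) did. Cox7a2 lost it without each of 10 mice and Cox6b2 without each of 13 of the 21 mice, with adjusted p-values up to 0.0969 and 0.0763 (edgeR).

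The 3 complexes moved together from mouse to mouse within each group. As a level for each complex, log2 CPM was centred on the mean of the 21 mice and averaged over its genes. In PBS mice this level ran from -0.349 to 0.772 for complex III (median 0.051), from -0.379 to 0.886 for complex IV (median 0.158) and from -0.316 to 0.723 for complex V (median 0.047). In HsTX1[R14A] mice it ran from -0.543 to 0.302 (median -0.297), from -0.572 to 0.221 (median -0.332) and from -0.556 to 0.292 (median -0.295). PBS mice 103 and 90 were highest in all 3 complexes, and PBS mouse 84 lay at -0.349, -0.379 and -0.316. HsTX1[R14A] mouse 93 stood highest in its group, at 0.302, 0.221 and 0.292, above most PBS mice.

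**Figure D3:**
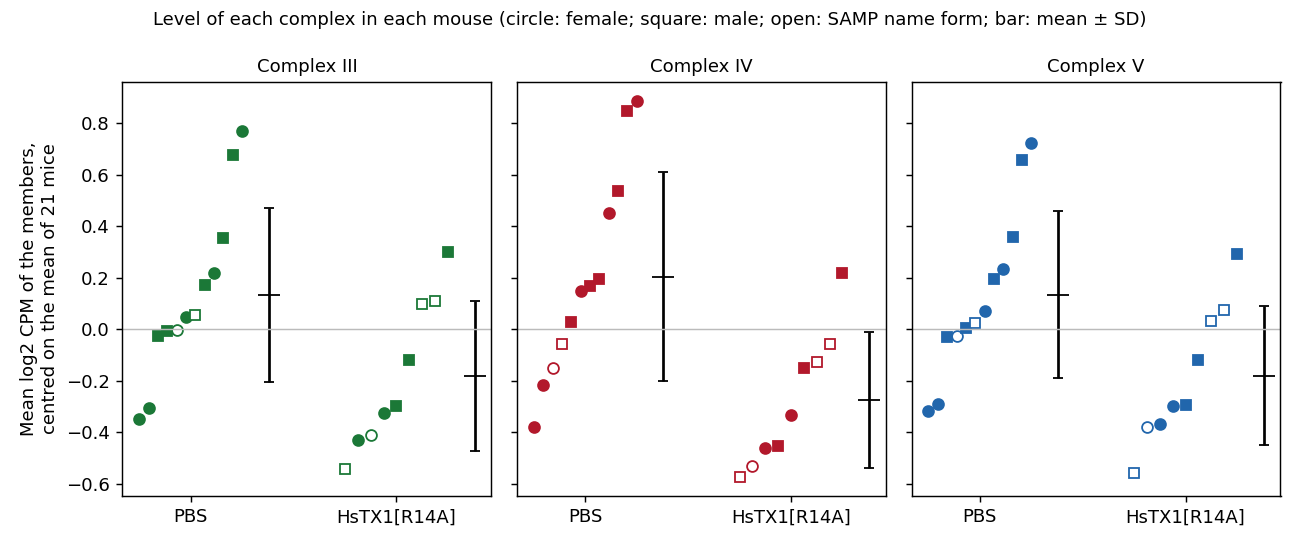
Level of each complex in each mouse (y axis, mean over its genes of log2 CPM centred on the mean of 21 mice), with circles for females, squares for males, open symbols for the SAMP name form and bars for the mean ± SD. PBS mice 103 and 90 lie at 0.656 or higher in each panel, and the treated mice reach at most 0.302.

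Libraries also differed in how counts depended on transcript length. This was measured as the slope of centred log2 CPM on log2 length of the longest transcript. It ran from -0.385 to 0.147 in PBS mice (median -0.024) and from -0.142 to 0.236 in HsTX1[R14A] mice (median 0.150). The lowest slopes belonged to PBS mice 103 (-0.385) and 90 (-0.338), and the lowest of the treated mice to mouse 93 (-0.142), and these mice had the highest levels of the 3 complexes within their own groups. With this slope as a covariate, 0 of the 47 genes and 0 of all genes were called (edgeR, where 6 of the 47 and 11.5% of all genes had an unadjusted p under 0.05), and the medians were 0.043 in complex III, -0.047 in complex IV and 0.081 in complex V. To the extent that slope and treatment overlap in these mice, their parts cannot be told apart.

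Across the 47 genes, the difference followed coding length and, more closely, the spread among PBS mice. Of 31 genes with under 450 coding bases, 21 were called lower (median -0.557), of 6 with 450 to under 750 bases 3 (median -0.463), and of 10 with at least 750 bases 1, Atp5f1 (median -0.123). These bounds were set after the values had been seen. Spearman's rho between coding length and log2 fold change was 0.730 over the 47 genes and 0.574 over 14550 tested genes, as a description across genes that share the same libraries. Between the SD of log2 CPM among PBS mice and log2 fold change, rho was -0.911 over the 47 genes. Genes that varied more among PBS mice thus had more negative differences, and both measures use the PBS values. Between coding length and that SD, rho was -0.749. In the 2930 tested genes with the shortest coding sequence (93 to 771 bases, band 1 of 5), 37.9% were called lower and the median was -0.285. That band holds 38 of the 47 genes, of which 25 were called lower, with a median of -0.516. In the shortest 364 genes, with a median of 264 coding bases, the median over all genes was -0.437.

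**Figure D4:**
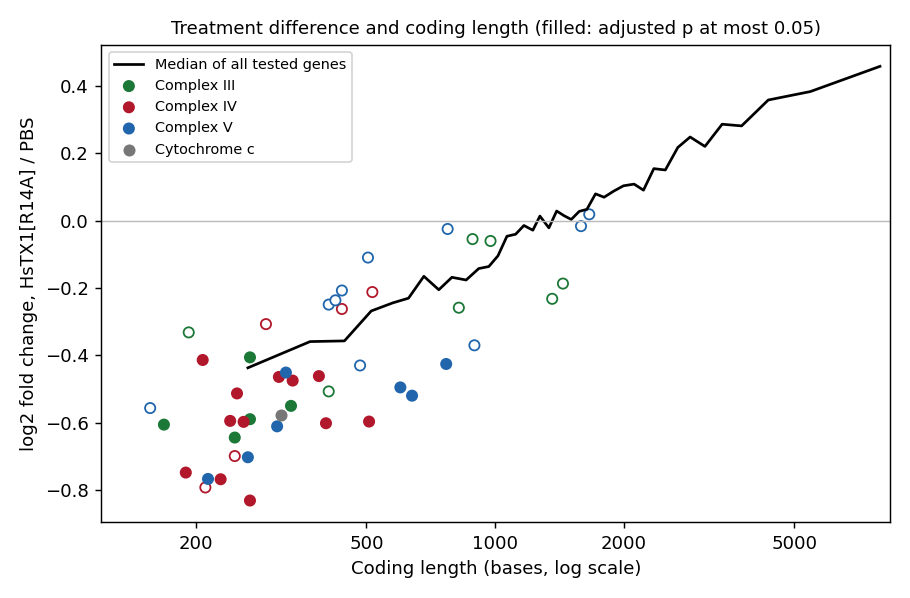
Log2 fold change between HsTX1[R14A] and PBS mice (y axis) against coding length in bases (x axis, log scale) for the 47 genes, with filled points for an adjusted p of at most 0.05, and the median of all tested genes in 40 bins of coding length (line). The line rises from -0.437 in the shortest bin to 0.459 in the longest, and most filled points lie below it.

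With each library's trend on coding length and GC content removed, a setting chosen after seeing the data, 6 of the 47 genes were called, all lower (8.41% of all tested genes were called lower). These were Cox6c (-0.27, adjusted p = 0.0202), Cox6a1 (-0.21, 0.0357) and Cox4i1 (-0.39, 0.0455) of complex IV, Atp5j2 (-0.27, 0.0442) and Atp5o (-0.28, 0.0422) of complex V, and Uqcrc1 (-0.28, 0.0496) of complex III (edgeR). The medians were then -0.123 in complex III, -0.128 in complex IV and -0.095 in complex V. Atp5a1 and Atp5b had -0.14 and -0.12 in this setting (adjusted p = 0.293 and 0.370, edgeR). The other F1 genes Atp5c1, Atp5d and Atp5e had -0.27, 0.08 and -0.02. With the trend on the length of the longest transcript and GC content removed instead, Cox6c (0.0209), Atp5j2 (0.0312) and Cycs (0.0252) were called (adjusted p, edgeR, with 6.45% of all tested genes called lower). With 1 surrogate variable 15 of the 47 genes were called (7.28% of all tested genes were called lower), and with no sex term 16 (9.56%). Cox6c and Atp5j2 were the genes called with either length and GC trend removed. With the longest-transcript trend removed, however, the share of the 47 genes called was near the 6.45% of all tested genes called lower. With the coding length trend removed it was 6 of 47 against 8.41%, and whether these shares differ was not tested. These calls therefore do not set the 47 genes apart from all tested genes. Cox6c overlaps Vps13b on the other strand.

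**Figure D5:**
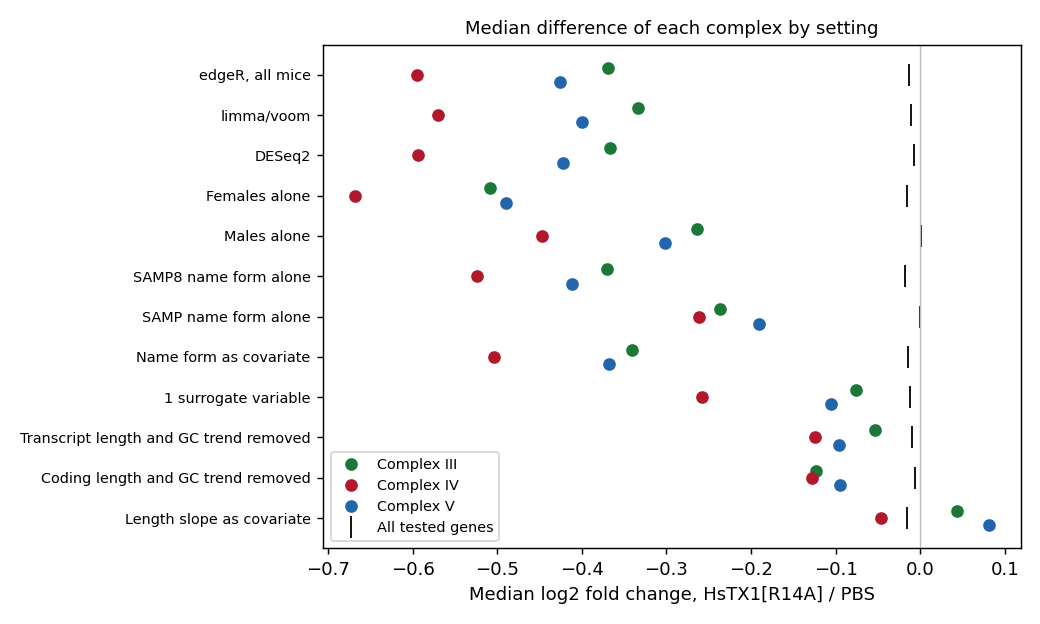
Median log2 fold change of each complex (x axis) under 12 settings of the fit (y axis), with a vertical tick for the median of all tested genes. Complex IV lies lowest and below 0 in each of the settings shown, and with the length slope as a covariate complexes III and V lie at 0.043 and 0.081.

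The libraries are named in 2 forms in the table's headers, SAMP8 (10 PBS and 5 HsTX1[R14A] mice) and SAMP (2 PBS and 4 HsTX1[R14A] mice), and what the forms stand for is not stated. Among the 15 mice of the SAMP8 form, the medians were -0.370 in complex III, -0.524 in complex IV and -0.411 in complex V. Here 26 of the 47 genes had an unadjusted p under 0.05 (35.6% of all tested genes) and 0 were called (edgeR). Among the 6 mice of the SAMP form the medians were -0.237, -0.262 and -0.190, and 0 of 46 genes tested reached an unadjusted p of 0.05 (3.19% of all tested genes). With the name form as a covariate, Uqcrb, Cycs, Cox7c, Cox6c, Cox6a1, Atp5s and Atp5f1 were called lower (6.36% of all tested genes were), which are also the 7 genes that held with each mouse left out.

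A difference between the sexes was not detectable in single genes, with 3 females in the treated group to show one. The treatment by sex interaction was called for 0 of the 47 genes by edgeR, limma/voom and DESeq2 (0% of all tested genes with edgeR), 0 had an unadjusted p under 0.05 (1.66% of all tested genes), and Cox6b1 had the lowest (p = 0.186, edgeR). In PBS mice, 0 of the 47 genes differed between males and females (0.0374% of all tested genes did), 0 had an unadjusted p under 0.05 (2.5% of all tested genes), and the lowest was that of Cox8a (p = 0.102, edgeR). Limma/voom and DESeq2 called 0 here as well. The fitted interaction was above 0, a less negative treatment difference in males, in 43 of the 47 genes (median 0.188). Levels in PBS mice were higher in males for 40 of the 47 (median log2 difference 0.113). These directions were not tested over the genes, which share the same libraries. In females alone the treatment medians were -0.508, -0.668 and -0.490 for complexes III, IV and V, and in males alone -0.264, -0.447 and -0.302, with 0 genes called in either sex and 23 and 19 at an unadjusted p under 0.05 (20.4% and 27.6% of all tested genes).

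Partner genes of the same complexes were read from fixed lists. All 6 subunits of complexes III to V that mitochondrial DNA encodes were lower, with a median log2 fold change of -0.941. mt-Co2 had -1.04 and mt-Co1 -0.85 (adjusted p = 0.0150 for each, edgeR). Mitochondrially encoded genes took 9.33% to 20.2% of counts in PBS mice (median 14.5%) and 7.13% to 13.5% in HsTX1[R14A] mice (median 9.40%). Ndufa4, now counted as a complex IV subunit, was lower (-0.65, adjusted p = 0.0254, edgeR).

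Among factors that build the complexes, 9 of 26 complex IV assembly genes were lower and 1 was higher, where 16.1% of all tested genes were lower and 15.5% higher (37.9% lower among the 2930 genes with the shortest coding sequence). Cmc1, which binds newly made mt-Co1 protein, was lower (-0.51, adjusted p = 0.0180, edgeR), as was Cox16 (-0.59, 0.0213, edgeR), whereas Lrpprc, which stabilizes mitochondrial mRNAs, was higher (0.44, adjusted p = 0.0163, edgeR). In complex V, 4 of 6 assembly and regulation genes were lower, including Usmg5, a small subunit that joins ATP synthase dimers (-0.84, adjusted p = 0.0188, edgeR), and Atpif1, the inhibitor of reverse ATP hydrolysis (-0.58, adjusted p = 0.0213, edgeR). In complex III, 1 of 3 was lower, Lyrm7 (-0.35, adjusted p = 0.0420, edgeR), while Bcs1l, which inserts the Rieske protein, had -0.15 (adjusted p = 0.254, edgeR). Of 8 complex II genes, 3 were lower, namely Sdhaf2 (-0.40, adjusted p = 0.0215, edgeR), Sdhc (-0.39, 0.0297) and Sdhaf1. With each library's trend on coding length and GC content removed, 3349 of all 16285 tested genes were called in either direction. In that setting 7 of the 26 complex IV assembly genes and 4 of the 6 mitochondrially encoded subunits were called, also counted in either direction. The median of the complex IV assembly genes was then 0.058, against -0.203 without the removal. For the mitochondrially encoded subunits it was -0.608, against -0.941. Of the complex II, complex III assembly and complex V assembly genes, 0 were.

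Of 13 regulators of respiratory genes, 2 were higher and 2 lower, shares near those of all tested genes (15.5% higher and 16.1% lower). Pprc1 (0.79, adjusted p = 0.0199, edgeR) and Ppargc1b (0.72, 0.0215, edgeR), coactivators of the PGC-1 family, were higher, and Tfb2m (-0.34, 0.0222, edgeR) and Tfam (-0.34, 0.0268, edgeR), which act in mitochondrial transcription, were lower. Nrf1, Gabpa and Yy1, whose motifs were searched in the promoters, had log2 fold changes of 0.07, -0.06 and 0.07 with adjusted p-values of 0.407, 0.414 and 0.260 (edgeR). In 15 other mitochondrial membrane and matrix genes, 2 were lower (Timm23, -0.45, adjusted p = 0.0229, edgeR, and Slc25a4, -0.22, 0.0388) and 2 higher (Tomm40, 0.18, 0.0247, and Cs, 0.18, 0.0278), with a median of -0.139, and these counts too are near the shares of all tested genes. With the coding length and GC trend removed, 3 of the 13 regulators and 3 of these 15 genes were called in either direction. Both counts are near the share of all tested genes (3349 of 16285).

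Markers of brain cell types were present in every mouse. Summed over 5 genes each, neuronal markers ran from 3615 to 5982 CPM in PBS mice and from 3787 to 6220 CPM in HsTX1[R14A] mice (1 of 5 higher, 0 lower), and oligodendrocyte markers from 3460.3 to 4965 CPM and from 2502 to 3894 CPM (2 of 5 lower). Astrocyte markers ran from 827 to 1550 CPM and from 863 to 1274 CPM (2 of 5 lower) and microglial markers from 257 to 350.0 CPM and from 220.0 to 309 CPM (1 of 5 lower). The 4 endothelial markers ran from 30.4 to 74.8 CPM and from 39.6 to 84.6 CPM (1 higher). Of 4 choroid plexus and 4 red blood cell genes, 0 were called, with sums of 66.8 to 1113 CPM and 56.4 to 821 CPM for choroid plexus and 5.32 to 151 CPM and 14.3 to 85.1 CPM for red blood cells. Among all tested genes, 16.1% were called lower and 15.5% higher, and lists of 4 or 5 markers are too short to set apart from these shares. The part of these cell type markers in the differences of the 47 genes was not tested.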

How the data were processed

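Whole-brain RNA-seq of 21 mice was analyzed, 12 given PBS and 9 given HsTX1[R14A], which the sample titles spell HxTX1[R14A]. The authors aligned reads to GRCm38 with STAR and quantified genes with Salmon, and the deposited values are estimated counts per gene, not normalized. They were rounded to whole numbers before testing (90.496% were within 0.01 of one). The filter behind the 16318 genes and the strand setting of the counting are not given in the sources used here, and the labels name another library kit than the study's methods. A further 53 per-sample columns (the authors' CPM and other libraries) and the authors' fold changes and p-values were not used.

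TMM scaling and edgeR 4.0.16 in R 4.3.3 (glmQLFit, glmQLFTest) were applied to the 16285 genes that filterByExpr kept, with sex and treatment as terms, adjusted by Benjamini and Hochberg's method at 0.05. The SE was the log2 fold change over the square root of F. The procedure was also run on simulated counts drawn gene by gene. These carried no length slope and no variation shared across the genes of a mouse, so that run cannot test for either. Library totals of 14917174 to 47613792 gave 44 of the 47 genes at least 10 counts in every mouse and a lowest count of 3, so the spread between mice limits most values. Log2 CPM carried a prior count of 2. Lengths came from GENCODE for GRCm38. A close pseudogene matched (blastn 2.17.0) at 95% identity or more over at least 150 bases, which 13 of the 47 genes have (6 with one among the deposited genes), and 13 overlap a gene on the other strand.

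Genes and lists were chosen with earlier results of these data known. Full values are given, per complex, for the 3 smallest and 2 largest p-values and any gene opposite in sign to the median, for Cycs, isoform pairs, c-ring genes and core subunits (30 genes), and for each list the 2 smallest p-values in the direction of its median. Alternatives were limma/voom 3.58.1, DESeq2 1.42.0, RLE scaling, other filters, no sex term, the name form or length slope as covariate, 1 surrogate variable (sva 3.50.0), removal of length and GC trends (loess span 0.5), subsets of mice and each mouse left out.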

Additional observations from a re-analysis of the deposited data

Results flagged for a closer look

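Cox6b1 in the 9 HsTX1[R14A] mice had 1 mouse far from the others. Mouse 93 was highest, at 422 CPM against a group median of 249 CPM, and its gap to the next mouse was 0.516 of the group's range, above the limit of 0.493 for 9 mice. This was 1 of 33 values examined, and chance alone gives about 1 in 20. Mouse 93 also had the highest level of each complex in its group. Without it, the log2 fold change of Cox6b1 was -0.70, against -0.60 in all mice.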

How the results depend on the processing

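Limma/voom, RLE scaling and no filter on low counts each called 25 of the 47 genes, DESeq2 30 and the filter of at least 10 counts in every mouse 28 (of 44 tested). Over all tested genes, the fit of all mice called 5152 of 16285. Limma/voom called 5207, RLE scaling 5274 and DESeq2 6150 of these. No filter on low counts gave 5139 of 16317, and the filter of at least 10 counts 5256 of 14228. Over all 47 genes and complexes III, IV and V, other settings called 7, 1, 3 and 2 (name form as covariate), 3, 0, 1 and 1 (trend on length and GC removed), 6, 1, 3 and 2 (trend on coding length and GC removed, chosen after seeing the data), 15, 3, 6 and 5 (1 surrogate variable) and 16, 3, 7 and 5 (no sex term). In the same order, these settings called 2017, 2522, 3349, 2383 and 2987 of all 16285 tested genes. The length slope as covariate, each name form alone, females alone and males alone called 0, 0, 0 and 0, with 6, 26 (SAMP8), 0 (SAMP), 23 and 19 of the genes at an unadjusted p under 0.05 (edgeR). Each of these settings also called 0 of all tested genes. With 1 mouse left out, 7 to 34 genes were called, 1 to 8, 3 to 14 and 2 to 12 by complex.

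The medians of complexes III, IV and V were 0.043, -0.047 and 0.081 with the length slope, -0.053, -0.124 and -0.096 without the length and GC trend, and -0.123, -0.128 and -0.095 without the coding length and GC trend. With the length slope, 18 of the 47 genes were below 0, against 46 in the fit without it. Among the 30 genes given with full values, differences changed sign with the length slope in Cyc1 (0.175), Uqcc1 (0.147), Uqcr11 (0.008), Uqcrc2 (0.025), Uqcrfs1 (0.045), Uqcrh (0.006), Cox4i2 (0.015), Cox5a (0.112), Cox6b1 (0.035), Cox7a2 (0.074), Atp5b (0.098), Atp5g1 (0.088), Atp5g2 (0.081) and Atp5g3 (0.147). They did so without the length and GC trend in Uqcc1 (0.090), Uqcrb (0.030), Uqcrc2 (0.028), Uqcrfs1 (0.016), Cox4i2 (0.108), Cox5a (0.047), Cox6a2 (0.100), Atp5a1 (-0.037), Atp5b (0.112) and Atp5g3 (0.155), and without the coding length and GC trend in Uqcc1 (0.133), Cox5a (0.134), Cox6a2 (0.068), Atp5a1 (-0.143), Atp5g1 (0.098) and Atp5g3 (0.078). Others were Cyc1 (0.083), Uqcc1 (0.073) and Atp5b (0.065) with 1 surrogate variable, Cyc1 (0.015) and Atp5b (0.056) in males alone, Cox8b (0.266) and Atp5a1 (-0.140) in the SAMP form alone, Atp5a1 (-0.015) with the name form and Atp5b (0.003) with no sex term. With 1 mouse left out, Atp5a1 ran from -0.007 to 0.046 and Atp5b from -0.042 to 0.011. The causes were not tested.

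No paired analysis was possible because the replicate numbers are mouse numbers that the groups do not share, and the cages, within which the study randomized treatment, are not given in the labels. Cox7a1, Cox4i2, Cox7b2 and Cox8b lay at a few CPM or less, where counts limit the precision.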
